A study of Homo sapiens with 4 samples.

Results

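The genes described here form the NF-kB signalling pathway and a set of inflammatory genes that it is known to switch on. They were listed by name as 34 genes, 16 of them parts of the pathway and 18 of them targets. Each was read by its brightest probe set among those annotated to exactly 1 gene. This gave a value for 31 of the 34, which are 14 parts and 17 targets among 19775 genes measured in all. BCL3, TRAF2 and CSF2 had no probe set with a single gene name in the annotation used and were not analysed here. The samples were 4 expression arrays hybridised with RNA from AGS cells, an established line grown out of a human gastric adenocarcinoma. Of these, 2 arrays came from PRMT6 knockout cells and 2 from control cells with wild-type PRMT6. The enzyme PRMT6 adds methyl groups to arginines, in histone H3 among other proteins. Per the labels, the knockout was made with a single guide RNA in a lentiviral Cas9 vector, puromycin selection and limiting dilution to clones. The labels do not say which clone each knockout array came from, nor whether the control cells carried a vector, so effects of 1 clone or of the virus cannot be told apart from the knockout. Nothing in the labels says that the arrays of a group came from separate cultures, so p-values measure only the spread between these arrays, which may be technical.

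NF-kB is a family of transcription factor dimers that are held in the cytoplasm by inhibitor-of-kB proteins. Signals from cytokine and pattern recognition receptors activate a kinase complex that marks the inhibitors for degradation, and the freed dimers enter the nucleus and bind kB sites in DNA. Several of the genes they switch on encode the pathway's own inhibitors, so that the response limits itself, and others encode cytokines, adhesion molecules and enzymes of inflammation. In gastric epithelium the pathway is best known for its activation by Helicobacter pylori. Arrays measure transcripts, and the location and degradation of these proteins, through which the pathway is mainly controlled, were not measured.

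On the 4 arrays the log2 intensities of 54613 probe sets had medians of 5.01 to 5.02. The 2 knockout arrays correlated at a Pearson's r of 0.996 over the probe sets and the 2 control arrays at 0.995, while pairs of a knockout and a control array gave 0.981 to 0.984. PRMT6 had log2 intensities of 7.79 and 7.63 on the knockout arrays and 8.03 and 8.11 on the control arrays. The targeted transcript was thus lower but remained measurable (log2 difference -0.36, adjusted p = 0.043), and the probe set does not test the edit itself. All 6 markers listed for a gastric epithelial line were measured, with means of 7.08 for CDX2, 9.32 for CLDN4 and 12.1 to 13.2 for EPCAM, KRT8, KRT18 and KRT19. Of these, 4 were called between the groups: CDX2 (log2 difference 1.00), KRT19 (0.61) and KRT8 (0.49) higher and CLDN4 (-0.46) lower in knockout cells. Of 9 leukocyte markers measured, 8 did not pass the test and CSF1R was lower in knockout cells (log2 difference -0.63, adjusted p = 0.019). LYZ, which gastric epithelium expresses too, held most of their summed intensity; without it the other 8 markers summed to 205 and 198 on the linear scale in knockout cells and 243 and 249 in control cells. Of 5 fibroblast markers 2, COL1A1 and COL3A1, were higher in knockout cells, and the 5 summed to 1240 and 1174 in knockout cells and 444 and 469 in control cells. COL1A1, of whose 5 probe sets 3 were higher and 2 lower, made most of that sum, and the other 4 markers summed to 83.1 and 83.6 in knockout cells and 70.5 and 80.1 in control cells. Of the endothelial markers, 0 of 4 passed limma's test, and 0 did at an unadjusted p below 0.05. The part of these markers in the results was not tested. Detection calls were not used here, so whether a dim value exceeds background is not known, which also holds for PTPRC at a mean of 2.98.

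Of the 31 members, 8 passed the test between knockout and control cells at an adjusted p below 0.05, 4 in each direction. The higher ones were the subunit REL, the atypical inhibitor NFKBIZ, the ubiquitin-editing inhibitor TNFAIP3 and the transcription factor CEBPD. The lower ones were the cytokines IL1A and IL32, the membrane protein TNFAIP2 and the cyclooxygenase PTGS2. The share called, 25.8%, was near the 24.0% of all 19775 genes called in the same comparison (12.4% higher and 11.5% lower), so the number of calls does not set these genes apart. By role, 3 of 14 pathway parts were higher and 0 were lower in limma (1 part, RELB, was lower at an unadjusted p below 0.05), and 1 of 17 targets was higher and 4 were lower. The median log2 difference was -0.01 for the parts and -0.07 for the targets, against -0.01 for all genes, and the difference between the 2 kinds of member was not tested. Both knockout arrays lay above both control arrays for 8 members and below them for 12, where 29.1% of all genes did so in each direction and 58.2% in either.

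The deposited values are scaled so that all arrays share 1 distribution. On that scale 5 of 9 reference genes were called higher in knockout cells and 0 lower, with a median log2 difference of 0.33. Setting the arrays to equal means of these 9 genes therefore lowers the knockout arrays against the control arrays by construction. With arrays set so, the median log2 difference of all genes was -0.27. Of the calls, 12.8% were higher, where 51.9% were with the deposited scaling. Under that scaling 3 members were higher (REL, TNFAIP3 and CEBPD) and 16 lower, beside 6.05% and 41.3% of all genes. The 8 called members kept their sign under it, and NFKBIZ alone among them lost its call (log2 difference 0.05, adjusted p = 0.60).

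**Figure D1:**
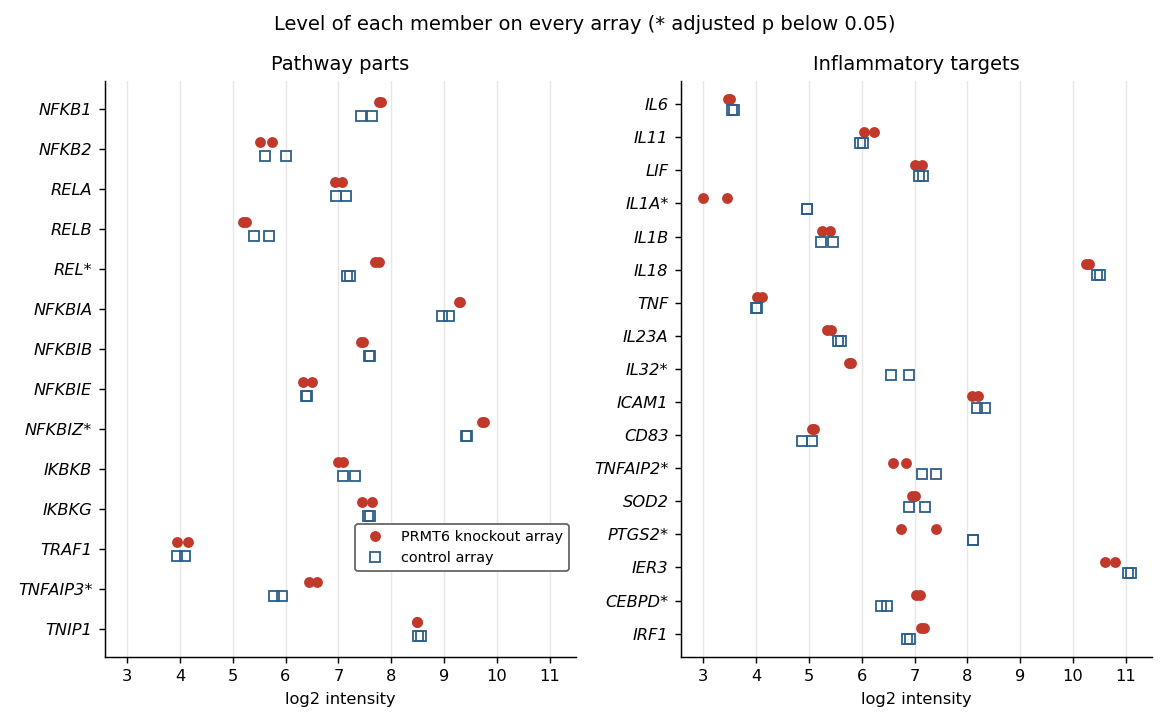
Log2 intensity (horizontal axis) of each measured member on every array, with pathway parts on the left and inflammatory targets on the right; filled red circles are the 2 PRMT6 knockout arrays, open blue squares the 2 control arrays, and an asterisk marks an adjusted p below 0.05. The pairs of symbols stand apart for IL1A, IL32 and PTGS2 and lie close together or overlap for members such as TNF, RELA and TRAF1.

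Among the subunits, REL, which encodes the c-Rel protein, had log2 intensities of 7.77 and 7.69 in knockout cells and 7.23 and 7.17 in control cells. Both knockout arrays lay above both control arrays. REL rose by 0.53 in log2 units (SE 0.08, 95% confidence interval 0.33 to 0.74), or 1.45-fold, with an adjusted p of 0.0089 in limma. All 5 of its probe sets were higher, by 0.33 to 0.53, and 2 of them passed when adjusted over all probe sets with 1 gene name. The call was lost without control 2 (adjusted p = 0.056), without knockout 1 (0.093) and without knockout 2 (0.084).

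The other 4 subunits did not pass the test. NFKB1, whose product is processed to a DNA-binding subunit, stood at 7.80 and 7.77 in knockout cells and 7.64 and 7.42 in control cells (log2 difference 0.25, adjusted p = 0.14). RELA, the main transactivating subunit, differed by -0.04 (adjusted p = 0.84), with arrays that overlapped. NFKB2 and RELB serve the alternative branch of the pathway. NFKB2 differed by -0.18 with overlapping arrays, and RELB stood at 5.24 and 5.19 in knockout cells and 5.69 and 5.40 in control cells (log2 difference -0.33, adjusted p = 0.11).

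NFKBIZ encodes an atypical nuclear inhibitor-of-kB protein that helps induce a subset of inflammatory genes. Its log2 intensities were 9.76 and 9.73 in knockout cells and 9.42 and 9.43 in control cells. It rose by 0.32 (SE 0.07, 95% confidence interval 0.13 to 0.51), or 1.25-fold, with an adjusted p of 0.035 in limma. The rise was small beside those of REL and TNFAIP3, and without any single array it no longer passed (adjusted p 0.099 to 0.18). Its other probe set was higher by 0.51, and neither passed when adjusted over all probe sets (adjusted p = 0.055 and 0.051).

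The classical inhibitors did not pass the test. NFKBIA, the first of them to be resynthesized after activation, stood at 9.29 and 9.30 in knockout cells and 9.10 and 8.97 in control cells. Its arrays were separate in the same direction as those of NFKBIZ (log2 difference 0.26, adjusted p = 0.081). NFKBIB differed by -0.14 and NFKBIE by 0.02, and all 3 probe sets of NFKBIB were lower, by 0.14 to 0.36.

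Of the kinase complex, the catalytic subunit IKBKB differed by -0.16 (adjusted p = 0.36) and the scaffold IKBKG by -0.04 (adjusted p = 0.84). The signs of their probe sets were mixed.

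TNFAIP3 encodes A20, a ubiquitin-editing enzyme that shuts the pathway off and is itself a target of NF-kB. Its log2 intensities were 6.60 and 6.44 in knockout cells and 5.92 and 5.78 in control cells, with no overlap. It had the largest rise of the 31 members, 0.67 in log2 units (SE 0.10, 95% confidence interval 0.41 to 0.92), or 1.59-fold, with an adjusted p of 0.0088. Both of its probe sets were called higher (0.67 and 0.51). The call was lost without control 2 (adjusted p = 0.060), without knockout 1 (0.091) and without knockout 2 (0.073). TNIP1, an adaptor that works with A20, differed by -0.05, and the adaptor TRAF1 by 0.03 from a mean of 4.03.

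The promoter sequences of the 3 pathway parts that rose are shown because REL, NFKBIZ and TNFAIP3 are known both as parts and as targets of NF-kB. Each run is the 250 bases before a start of the gene in RefSeq (GRCh38.p14), 5′ to 3′ on the gene's strand. Capitals mark every match to GGGNNNNNCC, a loose kB motif, on either strand, where N is any base; adjoining or overlapping matches run together. The windows are TNFAIP3 at chr6:137867009-137867258, REL at chr2:60881324-60881573 and the first of 2 NFKBIZ starts at chr3:101827740-101827989, all on the plus strand.
TNFAIP3: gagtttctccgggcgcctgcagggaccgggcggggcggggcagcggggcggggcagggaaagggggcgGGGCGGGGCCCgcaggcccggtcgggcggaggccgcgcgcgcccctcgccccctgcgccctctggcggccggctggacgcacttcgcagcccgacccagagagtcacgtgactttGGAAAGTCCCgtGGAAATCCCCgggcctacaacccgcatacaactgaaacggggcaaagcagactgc
REL: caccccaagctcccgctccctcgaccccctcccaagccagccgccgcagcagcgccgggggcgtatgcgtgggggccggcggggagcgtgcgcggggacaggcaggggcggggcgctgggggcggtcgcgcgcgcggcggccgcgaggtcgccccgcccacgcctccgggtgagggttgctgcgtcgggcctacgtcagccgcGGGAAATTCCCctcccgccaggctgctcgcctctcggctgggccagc
NFKBIZ: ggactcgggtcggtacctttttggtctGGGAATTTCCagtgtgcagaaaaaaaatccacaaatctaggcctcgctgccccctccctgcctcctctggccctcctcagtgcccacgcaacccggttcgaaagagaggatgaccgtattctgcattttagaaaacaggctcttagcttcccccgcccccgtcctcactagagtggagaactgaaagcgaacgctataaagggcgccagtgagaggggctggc
In TNFAIP3 a pair of matches on the minus strand, GGGACTTTCC at 67 to 58 bases before the start and GGGGATTTCC at 55 to 46, also fit the stricter kB consensus, in which the fourth base is a purine and the seventh and eighth are pyrimidines. REL holds GGGAAATTCC at 47 to 38 bases before the start, and NFKBIZ holds GGGAATTTCC at 223 to 214.

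**Figure D2:**
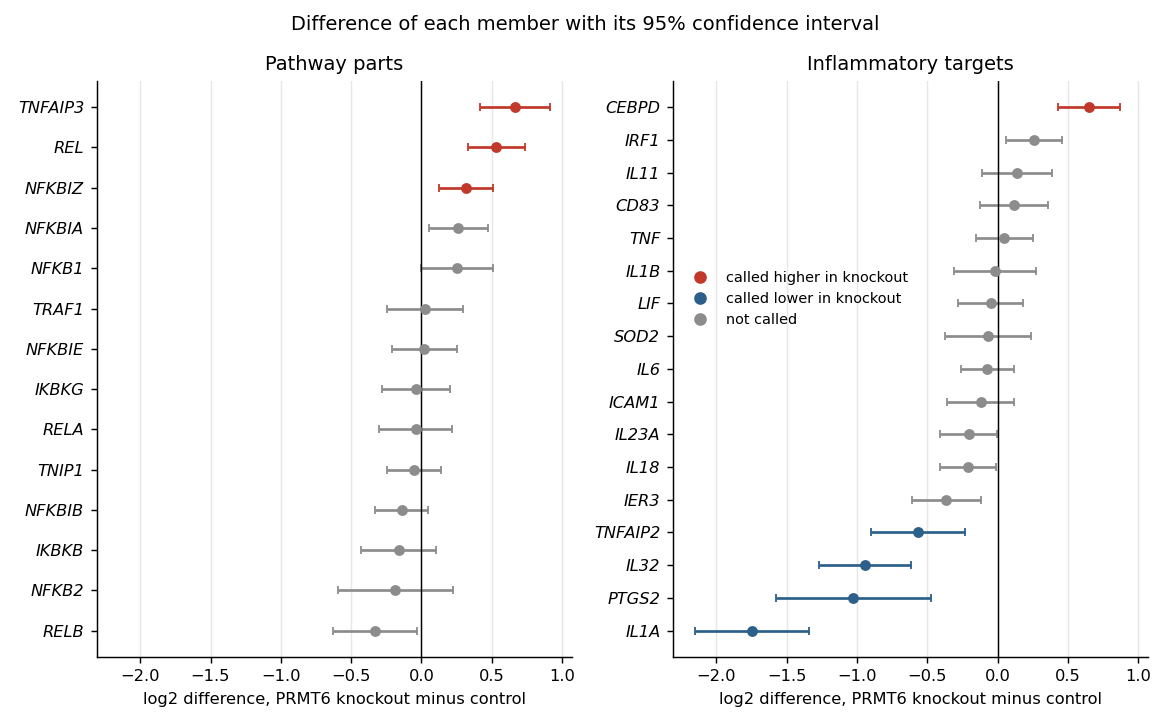
Log2 difference of each measured member, PRMT6 knockout minus control (horizontal axis), with its 95% confidence interval from limma; pathway parts on the left, inflammatory targets on the right, each sorted by size, red for called higher, blue for called lower and grey for not called. The parts span -0.33 to 0.67 with calls at the high end, and the targets span -1.75 to 0.65 with 4 of 5 calls at the low end.

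The IL-1 family was read by 3 genes. IL1A encodes interleukin 1 alpha, a cytokine that acts through the IL-1 receptor and is often kept inside or on the cell. Its log2 intensities were 3.45 and 2.98 in knockout cells and 4.96 and 4.96 in control cells, where the values were identical, as for 148 genes on the control arrays. IL1A fell by 1.75 in log2 units (SE 0.16, 95% confidence interval -2.16 to -1.34), or 3.36-fold, with an adjusted p of 0.0024, and kept its call with each array left out (adjusted p 0.028 to 0.037). This probe set is dim and, by its identifier, shared between transcripts, although it is annotated to IL1A alone. The gene-specific probe set, dim as well, read 3.85 and 3.38 in knockout cells and 3.43 and 3.83 in control cells and gave no difference (-0.02, adjusted p = 0.98), so the fall rests on 1 of 2 probe sets, and their mean gave -0.88. IL1B, the secreted form best known from inflammasome activation, differed by -0.02 with overlapping arrays. IL18, which epithelial cells make constitutively, stood at 10.31 and 10.24 in knockout cells and 10.52 and 10.45 in control cells (log2 difference -0.21, adjusted p = 0.13).

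IL32 encodes a cytokine that induces other inflammatory cytokines in monocytes. It had log2 intensities of 5.80 and 5.76 in knockout cells and 6.89 and 6.55 in control cells. The knockout arrays lay below both control arrays, which differed from each other by more than the knockout arrays did. IL32 fell by 0.94 (SE 0.13, 95% confidence interval -1.27 to -0.62), or 1.92-fold, with an adjusted p of 0.0069. It was read by 1 probe set, and the call was lost without knockout 1 (adjusted p = 0.087) and without knockout 2 (0.098).

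The remaining cytokines did not pass the test. IL6, TNF and IL23A differed by -0.07, 0.05 and -0.20, from means of 3.52, 4.03 and 5.48 that are not known to exceed background. LIF, an IL-6 family cytokine, differed by -0.05 (95% confidence interval -0.28 to 0.18). IL11, another member of that family, differed by 0.14 with its brightest probe set (adjusted p = 0.40). Its gene-specific probe set went the other way (-0.53) and was called lower in the fit limited to gene-specific probe sets (adjusted p = 0.048), so the array does not settle its direction.

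PTGS2 encodes cyclooxygenase 2, the inducible enzyme of prostaglandin synthesis. Its log2 intensities were 6.75 and 7.41 in knockout cells and 8.10 and 8.12 in control cells. The knockout arrays differed by 0.66 but both lay below the controls. PTGS2 fell by 1.03 (SE 0.22, 95% confidence interval -1.58 to -0.48), or 2.04-fold, with an adjusted p of 0.025. Its other probe set was also called lower (-0.93). The call was lost without control 1 (adjusted p = 0.13), without control 2 (0.14) and without knockout 1 (-0.69, adjusted p = 0.062), and kept without knockout 2 (-1.36, adjusted p = 0.035). SOD2, the mitochondrial superoxide dismutase, differed by -0.07 with overlapping arrays. Only 1 probe set names SOD2 alone, and others that name an overlapping transcript beside it were not used.

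Of the surface and membrane genes, TNFAIP2 encodes a protein of membrane protrusions that is induced by tumour necrosis factor. Its log2 intensities were 6.83 and 6.58 in knockout cells and 7.40 and 7.15 in control cells. TNFAIP2 fell by 0.57 (SE 0.13, 95% confidence interval -0.90 to -0.23), or 1.48-fold, with an adjusted p of 0.033. Both of its probe sets were lower, but the dimmer one (-0.29) did not pass when adjusted over all probe sets (adjusted p = 0.13). Omitting any single array ended the call (adjusted p 0.069 to 0.21). ICAM1, the adhesion molecule that binds leukocyte integrins, differed by -0.12, with overlapping arrays and 3 probe sets lower by 0.12 to 0.46. CD83, a surface marker of activated dendritic cells, differed by 0.12.

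CEBPD encodes a transcription factor of the acute phase response that works together with NF-kB at inflammatory genes. Its log2 intensities were 7.03 and 7.11 in knockout cells and 6.48 and 6.36 in control cells. CEBPD rose by 0.65 (SE 0.09, 95% confidence interval 0.43 to 0.87), or 1.57-fold, with an adjusted p of 0.0064, and was the target that rose. The call was lost without knockout 1 (adjusted p = 0.073) and without knockout 2 (0.089). Its gene-specific probe set was dim, with a mean of 2.26, and gave -0.19 (adjusted p = 0.47). The mean of both probe sets gave 0.23 and did not pass (adjusted p = 0.14).

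Next to the threshold stood IER3 and IRF1. IER3, an early response gene of cell survival, had 10.61 and 10.80 in knockout cells and 11.10 and 11.04 in control cells (log2 difference -0.36, adjusted p = 0.051). IRF1, a transcription factor of the interferon response, had 7.17 and 7.12 in knockout cells and 6.91 and 6.86 in control cells (log2 difference 0.26, adjusted p = 0.070). The arrays of these 2 genes were separate, in opposite directions.

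Of the 4 targets that fell, PTGS2, IL32 and TNFAIP2 hold the loose motif. IL1A, which fell most, holds no match in either of its 2 windows, which overlap. The sequences of PTGS2 and IL32 are shown as examples with matches, with capitals as before. PTGS2 lies at chr1:186680424-186680673 on the minus strand, and the first of 2 IL32 starts at chr16:3065153-3065402 on the plus strand.
PTGS2: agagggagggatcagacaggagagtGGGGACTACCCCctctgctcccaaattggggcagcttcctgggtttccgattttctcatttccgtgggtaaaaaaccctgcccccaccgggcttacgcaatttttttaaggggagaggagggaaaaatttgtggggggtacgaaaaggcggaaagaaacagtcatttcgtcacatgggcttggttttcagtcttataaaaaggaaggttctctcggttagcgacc
IL32: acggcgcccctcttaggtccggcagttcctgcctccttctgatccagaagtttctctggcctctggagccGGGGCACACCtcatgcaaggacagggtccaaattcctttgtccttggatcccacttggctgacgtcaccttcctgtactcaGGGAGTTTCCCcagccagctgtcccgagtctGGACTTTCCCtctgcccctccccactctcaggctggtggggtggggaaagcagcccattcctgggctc
The matches in PTGS2, at 225 to 214 bases before the start, do not meet the stricter consensus, whereas IL32 holds GGGAGTTTCC, which does, at 99 to 90. Matches lay before REL, NFKBIZ and TNFAIP3, which rose, and before 3 of the 4 targets that fell. By gene, the loose motif lay in 85.7% of the called members with a promoter, 87.5% of all such members and 69.4% of measured genes.

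RefSeq promoters were at hand for 24 of the 31 measured members, in 42 windows. The loose motif GGGNNNNNCC lay in 83.3% of these windows and in 54.4% of all 35116 windows, on either strand, and in 62.6% of the windows of measured genes. The stricter consensus, a subset of it, lay in 35.7% of the member windows and 9.96% of all. By gene, it lay in 8 of 11 pathway parts and 5 of 13 targets with a promoter, against 14.4% of measured genes and 11.8% of all. A gene with several windows has more chances of a match. TATAAA, the letters of the TATA box, lay in 8 member windows on either strand and at any position (19.0%, against 10.7% of all). The matches of PTGS2, TNF and ICAM1 were on the gene's strand and that of NFKBIA on the other strand. TGANTCA, an AP-1 motif, lay in 6 member windows (14.3%, against 6.57% of all), among them both windows of IL1A, which overlap and share a match. TTGCNNCAA, a C/EBP motif, lay in 0 member windows and 1.62% of all. The members were listed as NF-kB genes, so kB motifs before them are no finding of these arrays, and a match is not a bound site.

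**Figure D3:**
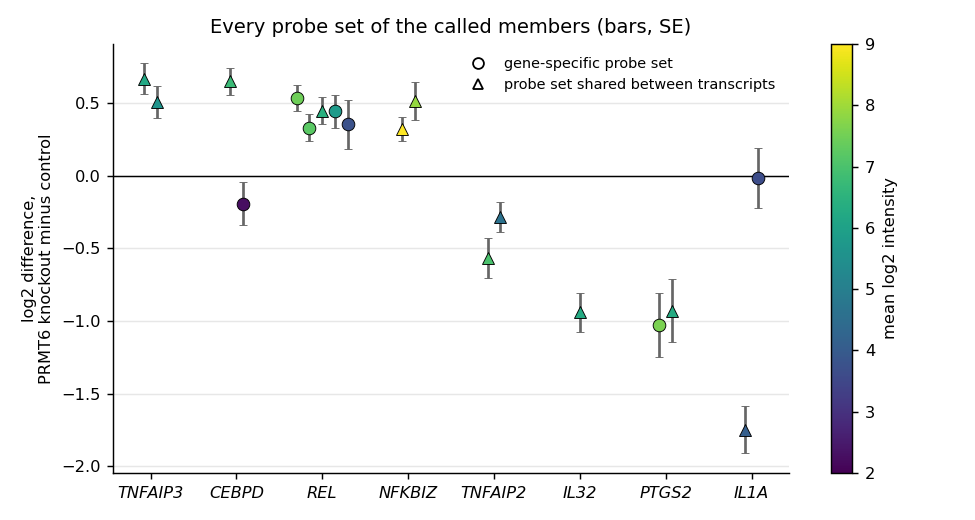
Log2 difference, PRMT6 knockout minus control (vertical axis), of every probe set of the 8 called members, with its SE. Circles are probe sets that are gene-specific by identifier ending, and colour gives the mean log2 intensity. Triangles are probe sets with other endings, termed shared between transcripts, which are also annotated to a single gene. The 5 probe sets of REL lie together above 0, while the dim gene-specific probe sets of CEBPD (-0.19) and IL1A (-0.02) stand apart from the others of those genes.

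Of the 31 members 20 had several probe sets, 60 probe sets in all with the single ones. In 13 of these 20 all probe sets had the same sign, and in 7 the signs differed. Among the called members signs differed for CEBPD alone. A probe set that counts as gene-specific by the ending of its identifier existed for 22 members. The remaining probe sets were also annotated to a single gene. Whether they match transcripts of other genes was not tested. In the fit limited to gene-specific probe sets, REL was called higher and IL11 and PTGS2 lower.

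Of 91 measured genes in 4 further lists, 7 were higher and 21 lower (30.8% called, beside 24.0% of all genes), with a median log2 difference of -0.09. Among 25 receptors and adaptors, 3 were higher and 6 lower (36.0% called). The IL-1 receptor accessory protein IL1RAP rose by 0.56 and the adaptor MYD88, which links IL-1 and Toll-like receptors to the kinases, rose by 0.57. TLR4, the receptor for lipopolysaccharide, rose by 0.66 on a probe set whose probes can also match other transcripts. TNFRSF12A, the receptor for TWEAK, fell by 0.83, TRAF5 by 0.64, IRAK2 by 0.61 and TICAM1 by 0.48. Adjusted p-values of these 7 genes ran from 0.0024 for TNFRSF12A to 0.035 for IRAK2. With the mean of probe sets, IRAK2 (-0.23, adjusted p = 0.14) and TRAF5 (-0.29, adjusted p = 0.0502) lost their calls.

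Among 26 kinases, ligases and deubiquitinases, 1 was higher and 7 lower (30.8% called, beside 24.0% of all genes). RBCK1, which encodes HOIL-1 of the linear ubiquitin ligase complex, had log2 intensities of 9.48 and 9.62 in knockout cells and 11.29 and 11.26 in control cells. It fell by 1.72 (SE 0.09), or 3.30-fold, with an adjusted p of 0.00057, and kept its call under every alternative that tested it. SHARPIN (0.10) and RNF31 (-0.12), the other subunits of that complex, did not pass the test. TANK fell by 0.83, BCL10 by 0.78 and the deubiquitinase CYLD by 0.42, while COMMD1, which promotes degradation of RELA, rose by 0.41. BCL10 lost its call when its probe sets were averaged (adjusted p = 0.23), and so did CYLD (-0.24, adjusted p = 0.094), which also lost it with its gene-specific probe set (0.76).

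A further list held 19 genes that receive or pass on the signal of the member cytokines. Of these, 2 were higher and 4 lower (31.6% called, beside 24.0% of all genes). IL1R2, a decoy receptor that binds IL-1 without signalling, had log2 intensities of 6.28 and 6.32 in knockout cells and 4.83 and 4.57 in control cells. It rose by 1.59 (SE 0.11), or 3.01-fold, with an adjusted p of 0.0012. IL6R, the receptor chain for interleukin 6, had 4.97 and 5.14 in knockout cells and 6.49 and 6.52 in control cells. It fell by 1.45 (SE 0.09), or 2.73-fold, with an adjusted p of 0.0010. JAK1 fell by 0.85, JAK2 by 0.44 and IL18R1 by 0.37, whereas STAT3, the factor activated behind IL-6 family receptors, rose by 0.45. IL18R1 was dim, with a mean log2 intensity of 2.79, and its signal was not tested against background. Its call was lost in the fit limited to gene-specific probe sets (-0.37, adjusted p = 0.050005).

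Among 23 NF-kB targets outside the members, 1 was higher and 4 lower (21.7% called, beside 24.0% of all genes). RIPK2 and MAP3K8 in this list also stand in an earlier one, and neither was called. GADD45B, which regulates stress kinase signalling, had log2 intensities of 8.14 and 8.35 in knockout cells and 9.60 and 9.56 in control cells. It fell by 1.33 (adjusted p = 0.0015). PLAUR, the urokinase receptor, fell by 1.24 (adjusted p = 0.0013), SDC4 by 0.87 and IL4R by 0.42, while IL15 rose by 0.43. The calls of RBCK1, IL1R2, IL6R, GADD45B and PLAUR were kept with each array left out. Other probe sets gave smaller falls that still passed, -0.86 for IL6R with the mean of probe sets, and -0.45 for GADD45B and -0.49 for PLAUR with gene-specific ones. Each of the other called genes named in these 4 lists lost its call without knockout 1 and also without knockout 2. TICAM1, COMMD1, CYLD, JAK2, IL18R1 and IL4R lost theirs whichever of the 4 arrays was left out. COMMD1 (adjusted p = 0.18), STAT3 and IL15 also lost theirs under reference gene scaling, and IL15 with the mean of probe sets (0.28, adjusted p = 0.098).

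**Figure D4:**
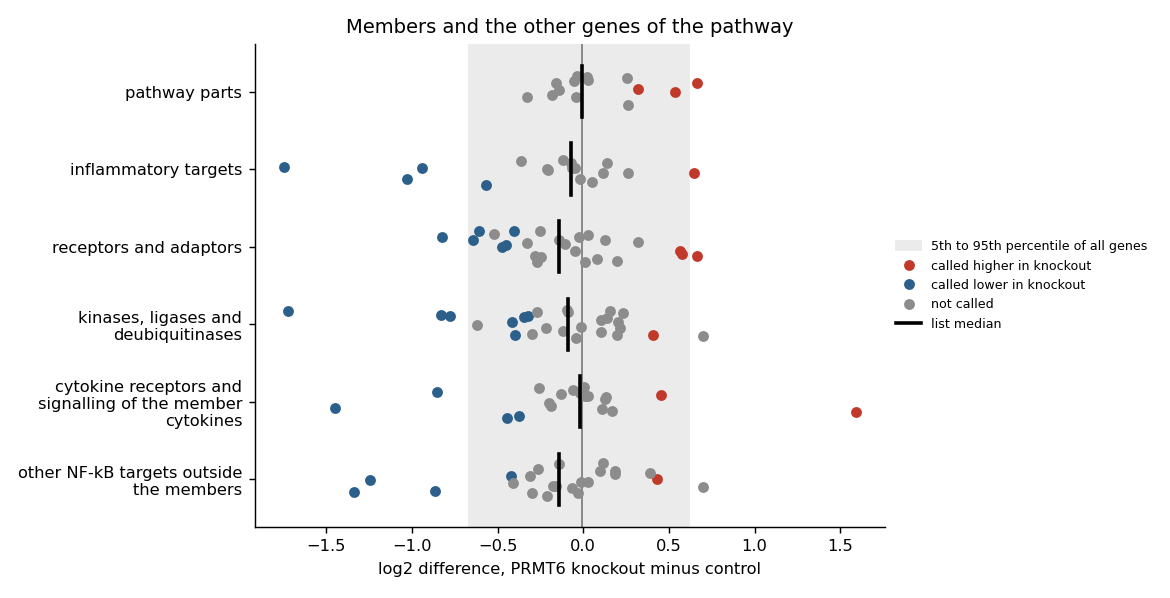
Log2 difference, PRMT6 knockout minus control (horizontal axis), of each gene in the member groups and the 4 further lists; red, called higher; blue, called lower; grey points, not called; black bars, list medians; grey band, the 5th to 95th percentile of all genes (-0.67 to 0.62). List medians lie between -0.14 and -0.01, and RBCK1, IL6R, IL1A and IL1R2 lie farthest from 0.

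**Figure D5:**
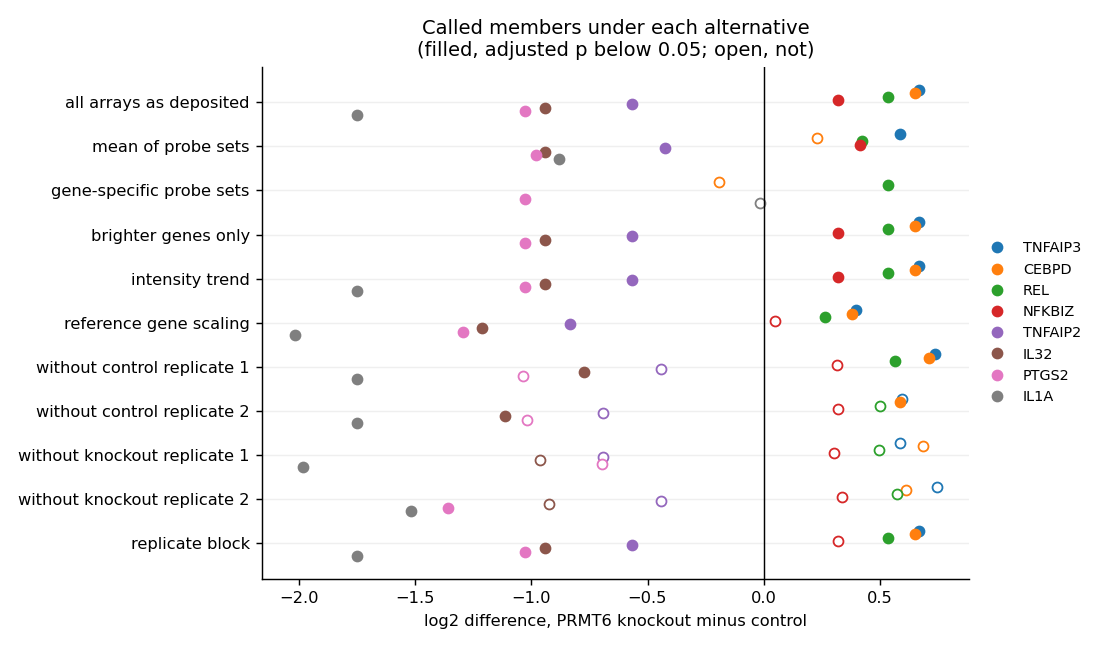
Log2 difference, PRMT6 knockout minus control (horizontal axis), of the 8 called members in the fit of all arrays and under each alternative; filled symbols passed at an adjusted p below 0.05 and open ones did not. The symbols of IL32, PTGS2, TNFAIP2, TNFAIP3, REL and NFKBIZ keep their sides of 0 throughout, CEBPD crosses to -0.19 with gene-specific probe sets, and most symbols are open where a knockout array is left out.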

How the data were processed

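The authors deposited 1 table of log2 intensities, 54613 probe sets on 4 arrays. Per the submitters' processing notes it was made with RMA (background correction, quantile normalization, summary per probe set) in the affy package; versions are not given in the sources used here. The range of the values, 1.64 to 14.16, is that of a log2 scale. RMA removes changes in total RNA and compresses differences of dim probe sets. Names came from the platform annotation, updated by Entrez number to the RefSeq table of GRCh38.p14. Of all probe sets, 41091 had 1 symbol, 1801 several and 11721 were not listed. Each of 19775 genes was read by its brightest probe set.

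Each gene's difference between the groups was fitted by lmFit and eBayes of limma 3.58.1 under R 4.3.3 (no covariates, 2 residual and 3.27 prior degrees of freedom), with Benjamini-Hochberg adjustment over all genes and a call at an adjusted p below 0.05. Differences are knockout minus control with moderated standard errors (SE); group size was 2 arrays. The fit was tested on simulated data. The number of arrays limits the precision. Alternatives were the mean of probe sets, gene-specific probe sets (identifiers ending in _at with no further letter), the brighter genes only, an intensity trend in the prior, scaling to 9 of 12 listed reference genes, each array left out, and the replicate number as a block. With a single knockout array, its variation is assumed to be like that of the controls. Described were all members and, in each further list, up to 4 called genes with the largest change in each direction; SHARPIN, RNF31 and the genes next to the threshold were named after their values were seen. The members, lists and tests were chosen with earlier results of these data known. The alternatives for genes outside the members and the stricter kB consensus were added after seeing the data. Promoter sequences are RefSeq's; RELB, NFKBIE, IKBKB, LIF, IL18, IER3 and CEBPD had none at hand.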

Additional observations from a re-analysis of the deposited data

How the results depend on the processing

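With 2 arrays per group most calls rest on all 4 arrays. Leaving out single arrays gave 154 to 1371 genes higher and 354 to 1258 lower, against 2459 and 2281 with all, and 0 to 3 members higher and 1 to 2 lower; the medians ran from -0.058 to 0.061 for pathway parts and from -0.14 to -0.065 for targets. IL1A alone among the members kept its call with each array left out, and it lost it with its gene-specific probe set. Limited to gene-specific probe sets (16782 genes, 22 members), 1613 genes and 1 member were higher and 2 members lower. Limited to brighter genes (22 members), 56.3% of 9888 genes and 54.5% of members were called, 7 members higher (adding NFKB1, NFKBIA and IRF1) and 5 lower (IL18, IL32, TNFAIP2, PTGS2 and IER3), and the target median was -0.12; it was -0.14 with the mean of probe sets. With an intensity trend, 29.3% of all genes were called, and 5 members were higher and 6 lower (35.5%). Reference gene scaling gave 1197 genes higher and 8166 lower, 16 members lower, and medians of -0.28 for parts and -0.34 for targets.

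Sign changes of members concerned genes that were not called, CEBPD excepted. With the mean of probe sets these were IKBKG (0.020), IL11 (-0.20) and IL1B (0.085), and with gene-specific probe sets IKBKG (0.077), TNIP1 (0.0083), IL11 (-0.53) and CEBPD (-0.19). Under reference gene scaling they were NFKB1 (-0.015), NFKBIA (-0.0054), NFKBIE (-0.25), TRAF1 (-0.24), IL11 (-0.13), TNF (-0.22), CD83 (-0.15) and IRF1 (-0.0091). With single arrays left out the log2 difference ran from -0.39 to 0.018 for NFKB2, -0.14 to 0.056 for RELA, -0.064 to 0.11 for NFKBIE, -0.13 to 0.055 for IKBKG, -0.075 to 0.13 for TRAF1, -0.12 to 0.023 for LIF, -0.14 to 0.10 for IL1B and -0.22 to 0.084 for SOD2. Fits with fewer arrays or genes differ from the main fit in their construction, and the causes of lost calls were not tested.

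The groups share replicate numbers 1 and 2 in the labels, which do not say that a number marks a shared culture or day. The deviations of same-numbered arrays correlated at 0.05 across genes. With the replicate block, 2035 genes were higher and 1937 lower, 3 members were higher and 4 lower, and NFKBIZ lost its call (adjusted p = 0.070), as did IL4R (0.062) and IL18R1 (0.067) outside the members.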
